A study of Prunus avium with 21 samples.

Results

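A set of 144 transcripts in 127 assembled genes, out of 112043 transcripts in 48840 assembled genes of the table, was high in dormant sweet cherry (Prunus avium) flower buds and declined sooner in buds sprayed with hydrogen cyanamide than in buds sprayed with water. The transcripts were chosen by the mean of log2(FPKM + 0.5) in each group, where FPKM is a fragment count scaled to the length of the transcript and the size of the library. A transcript was kept when untreated buds at day 0 exceeded control buds at 6 days after treatment (dat) by at least 1.5 log2 units, when control buds at 3 dat exceeded control buds at 6 dat by at least 0.75, and when control buds exceeded treated buds at 3 dat by at least 1, with the highest treated library under the lowest control library. In addition, treated buds at 1 dat had to be less than 2 log2 units below control buds, both treatments had to differ by less than 1 at 6 dat, and the mean at day 0 had to reach 5 FPKM. These values selected the transcripts, so differences between those pairs of groups are given below as a description, with no test.

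Flower buds of temperate fruit trees pass the winter in dormancy, during which they hold large amounts of protective proteins such as dehydrins, keep starch and soluble sugars in reserve, and are held back by abscisic acid and by MADS-box regulators of the DAM and SVP type. Much of this programme is shut down as buds warm and approach bud break. Hydrogen cyanamide, the active compound of Dormex, is sprayed on orchards to break dormancy when winter cold was insufficient.

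The 21 libraries come from 7 groups of 3 trees of the cultivar ‘Burlat’, grafted on Prunus mahaleb and numbered 4, 5 and 6, with 1 library for each tree and group. Excised branches were either left untreated (day 0) or sprayed with 2% Dormex in deionized water (treated buds, labelled D) or with deionized water alone (control buds, labelled W), and buds were taken at 1, 3 and 6 dat. All sprayed branches stood in a warm growth chamber under constant light, whereas day 0 buds were frozen before spraying and at another time of day, so that the chamber, the hour and the passage of time cannot be told apart in a comparison with day 0. A library holds all flower buds of 1 branch, of mixed developmental stages, and in such pools fewer cells of a type and less RNA per cell cannot be told apart.

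Every library correlated most closely with another library of its own group, at an r of 0.883 to 0.909 within groups. The deposited FPKM come without counts. From the steps between rare transcripts, the relative depth of the libraries spanned a ratio of 1.35, with group means of 1.11 in control and 1.03 in treated buds at 3 dat. None of the marker transcripts below was a member. Only transcripts that the study had listed as responsive to hydrogen cyanamide or as co-expressed could serve as markers. They are no unselected panel, so differences between sprays in their sums are in part set by that choice. The 16 cell division markers, 5 of them under 0.5 FPKM in both groups at 3 dat, summed to 845 to 1023 FPKM in control and 501 to 589 FPKM in treated buds at 3 dat, and to 842 to 1030 and 500 to 617 FPKM at 6 dat. The 3 green tissue markers summed to 5.12 to 7.27 and 17.7 to 29.4 FPKM at 3 dat, the 7 flower organ identity markers to 5.55 to 7.77 and 8.42 to 12.5 FPKM, and the 13 anther and pollen markers, 1 of them at 0 in treated buds, to 2.74 to 13.4 and 10.9 to 23.9 FPKM. Single transcripts made up most of the cell division and green tissue sums at 3 dat. A histone H1 transcript (TR21902|c0_g2_i1) had means of 758 FPKM in control and 342 FPKM in treated buds at 3 dat, while 9 of the 16 cell division markers had the higher mean in treated buds, among them a histone H2B (TR41395|c0_g1_i1, 5.93 and 16.4 FPKM). In green tissue psbY (TR15638|c0_g1_i1) had 5.59 and 21.7 FPKM and the chlorophyll a-b binding protein (TR33074|c5_g1_i2) 0.684 and 0.0810 FPKM. The part of these markers in the results was not tested.

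The members took 1.76 to 1.99% of all FPKM in the 3 libraries of day 0. This share was 0.778 to 0.875% in control and 0.450 to 0.485% in treated buds at 1 dat, 0.428 to 0.545% and 0.149 to 0.199% at 3 dat, and 0.131 to 0.151% and 0.0989 to 0.152% at 6 dat. Treated libraries lay under the control libraries at 1 and 3 dat and overlapped with them at 6 dat. At 3 dat the rule demands this of each member. The rule also chose members high at day 0 and close between sprays at 6 dat, so these shares are in part set by the choice. Single members ranged from 5.02 to 2181 FPKM at day 0, with a median of 14.7 FPKM, and 23 of them reached 100 FPKM.

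**Figure D1:**
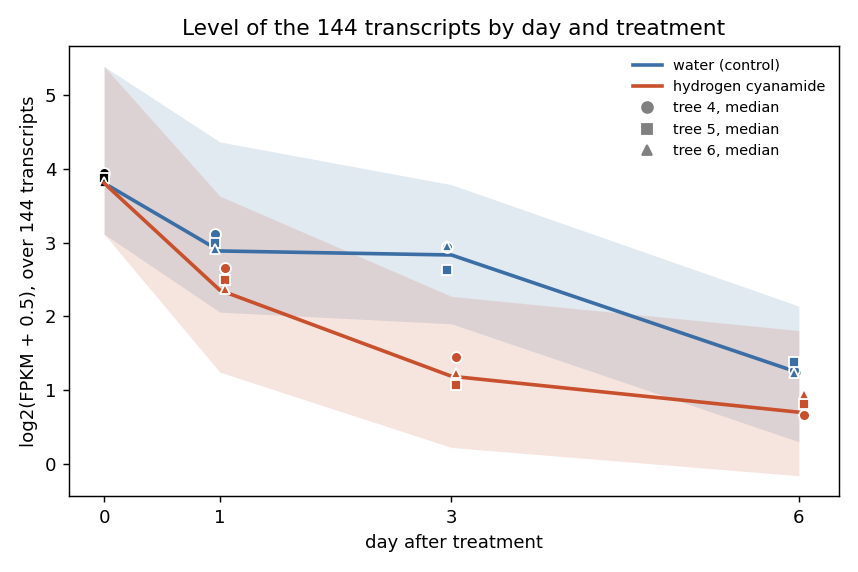
Level of the 144 transcripts (y axis, log2(FPKM + 0.5)) against the day after treatment (x axis) in water-treated (blue) and hydrogen cyanamide-treated buds (red). Lines are medians over the transcripts of the group means, bands are the quartiles and points are medians of single libraries (circle, square and triangle for trees 4, 5 and 6; black for day 0). The treated median reached 1.19 at 3 dat, and the control median stood at 2.83 at 3 dat and 1.24 at 6 dat.

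In control buds most of the decline fell before 1 dat and after 3 dat, the latter as the rule requires. The median over members of the log2 difference from day 0 was 0.96 at 1 dat, 1.14 at 3 dat and 2.75 at 6 dat. In treated buds the medians were 1.68 at 1 dat and 2.79 at 3 dat. Expressed as a share of the difference between day 0 and control buds at 6 dat, the median member had covered 35.8% at 1 dat and 44.3% at 3 dat in control buds, against 59.6% and 100.4% in treated buds. In treated buds at 3 dat 108 members had covered at least 90%, and in control buds at 3 dat 0. The rule itself keeps the latter low. It also raises the shares of treated buds at 3 dat, which had to lie at least 1 log2 unit under control buds. At 3 dat the treated mean was lower than the control mean by a median of 1.55 log2 units (1.02 to 3.43), and no treated library overlapped with a control library in any of the 144 members, as the rule demands (13.2% of the 62855 transcripts whose mean over the 21 libraries reached 0.5 FPKM).

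The difference was present in each tree, with medians of 1.44, 1.5 and 1.73 in trees 4, 5 and 6. The lowest values of single members within a tree were 0.01, 0.08 and 0.35. That the direction held in all 3 trees for every member is demanded by the rule, which allows no overlap of libraries. Among the 649 transcripts that met only the conditions on day 0, on the decline to 6 dat and on control buds at 3 dat, the treated mean was under the control mean at 3 dat in 545 (84%), by a median of 0.82. Control libraries at 3 dat entered that choice too, so this count is not free of selection. The members nearest to the threshold of 1 were TR13628|c3_g2_i1 (212 FPKM in control and 106 FPKM in treated buds, a difference of 1.02) and TR39997|c0_g1_i2 (6.45 and 2.85 FPKM, also 1.02), and just outside lay TR11841|c0_g1_i16 (3.28 and 1.4 FPKM, 0.99) and TR13196|c2_g1_i1 (19.3 and 9.15 FPKM, 0.98).

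**Figure D2:**
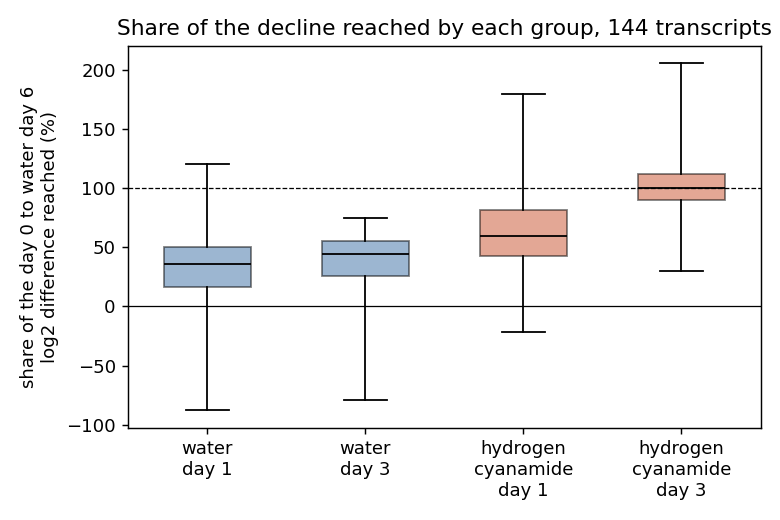
Share of the log2 difference between day 0 and water-treated buds at 6 dat that each group had reached (y axis, %), over 144 transcripts. Boxes give the quartiles, the black line the median and whiskers the lowest and highest transcript. The dashed line marks 100%, the level of control buds at 6 dat, and the median of treated buds at 3 dat is 100.4%.

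Among the members described in the study's lists of responsive transcripts, proteins of cold and drought protection were the most abundant. The cold-regulated protein (TR34290|c0_g1_i1), the only assembled transcript of its gene, is named for its induction in the cold and had 2466, 1831 and 2246 FPKM at day 0 in trees 4, 5 and 6. In control buds it stood at 316, 278 and 295 FPKM at 1 dat, at 173, 95.2 and 177 FPKM at 3 dat and at 14.6, 12.8 and 12.9 FPKM at 6 dat. In treated buds it stood at 103, 92.4 and 75.3 FPKM, at 27.1, 17.2 and 18.1 FPKM and at 10.7, 7.74 and 5.22 FPKM on the same days. Treated libraries were under every control library of the same day on all 3 days, and the treated libraries at 3 dat were close to, but all above, the control libraries at 6 dat.

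The cold-shock protein CS120-like transcript (TR25329|c1_g1_i2) encodes a dehydrin, a hydrophilic protein that protects cells when water is lost. It had 1009, 836 and 988 FPKM at day 0. At 3 dat it had 45.4, 34.7 and 59.1 FPKM in control and 13.8, 6.00 and 6.83 FPKM in treated buds, and at 6 dat 5.53, 4.98 and 6.53 FPKM in control buds. Tree 4 kept the highest treated value at 3 dat, and the treated libraries of trees 5 and 6 lay within or near the range of control buds at 6 dat. A second gene with this description (TR9144|c0_g1_i3, described through another isoform) followed the same course, with means of 832 ± 172 FPKM at day 0, 42.9 ± 12.8 FPKM in control and 6.92 ± 3.44 FPKM in treated buds at 3 dat, and 5.51 ± 1.13 FPKM in control buds at 6 dat (SD, n = 3).

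Of the gene of a low-temperature-induced 65 kDa protein (TR26397|c1_g2), whose Arabidopsis relative responds to cold and abscisic acid, 5 of 16 isoforms were members. They held 104 to 212 FPKM each at day 0, and the most abundant, TR26397|c1_g2_i16, stood at 225, 239 and 173 FPKM. At 3 dat this isoform had 15.1, 5.70 and 8.78 FPKM in control and 3.80, 5.39 and 0.00177 FPKM in treated buds. The value of tree 6 is near 0 and that of tree 5 nearly touches the lowest control library, while the summed isoforms of the gene gave 53.2 and 18.1 FPKM. Other members of this kind were minor isoforms. The hydrophobic protein RCI2B isoform TR10963|c1_g1_i9, a small membrane protein of cold-treated Arabidopsis, had 9.29 FPKM at day 0 and 0.504% of its gene, and the DC-8-like embryonic protein TR40268|c0_g1_i1, named after a protein of carrot embryos, had 13.0 FPKM and 1.54%.

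The abundant members of this kind fell within the first day under both sprays. Members were chosen high at day 0 with the same libraries. Tests of single members against day 0, here and below, are therefore in part set by the choice. At 1 dat against day 0 the cold-regulated protein TR34290|c0_g1_i1 fell by 2.87 on the log2 scale in control buds (SE 0.11, limma adjusted p = 0.000121) and by 4.59 in treated buds (SE 0.14, adjusted p = 6.74e-06). CS120-like TR25329|c1_g1_i2 fell by 3.45 (SE 0.10, adjusted p = 0.000111) and by 5.43 (SE 0.13, adjusted p = 2.92e-06), and TR9144|c0_g1_i3 by 3.43 (SE 0.15, adjusted p = 0.000155) and 5.34 (SE 0.19, adjusted p = 9.79e-06). For TR26397|c1_g2_i16 the falls were 3.24 (SE 0.13, adjusted p = 0.000121) and 3.67 (SE 0.38, adjusted p = 0.00114). The RCI2B isoform TR10963|c1_g1_i9 did not pass in control buds (log2 FC -0.07, adjusted p = 0.874) or in treated buds (log2 FC -1.31, adjusted p = 0.126), and passed in treated buds without the treated library of tree 5 (log2 FC -1.87, adjusted p = 0.0134).

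Over the 19 transcripts that the study describes as dehydrins or cold, LEA or early light-induced proteins, 2 are members by their own description and 3 more members belong to genes of the list. This list and the lists below stem from the study's tables of transcripts that responded to hydrogen cyanamide in these samples. They are no independent evidence of a direction, and a surplus of changes over all transcripts is in part set by that choice. Of the 18 transcripts tested, 9 fell in control and 13 in treated buds at 1 dat against day 0 and 0 rose. Among all transcripts tested, 1.89% fell and 3.63% rose in control and 2.42% and 5.13% in treated buds. The medians of the list were -1.22 and -2.06 on the log2 scale, beside 0.13 and 0.06 over all transcripts tested. At 3 dat the treated mean was under the control mean in 14 of the 19, against 52.6% of all transcripts, by a median of 1.96 over the list. The most abundant of the list, dehydrin 2 (TR26333|c2_g1_i8, 5125 FPKM at day 0), stood at 2005 FPKM in control and 460 FPKM in treated buds at 3 dat. It was left out of the set because treated buds still lay well under control buds at 6 dat, at 100.2 against 570 FPKM.

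**Figure D3:**
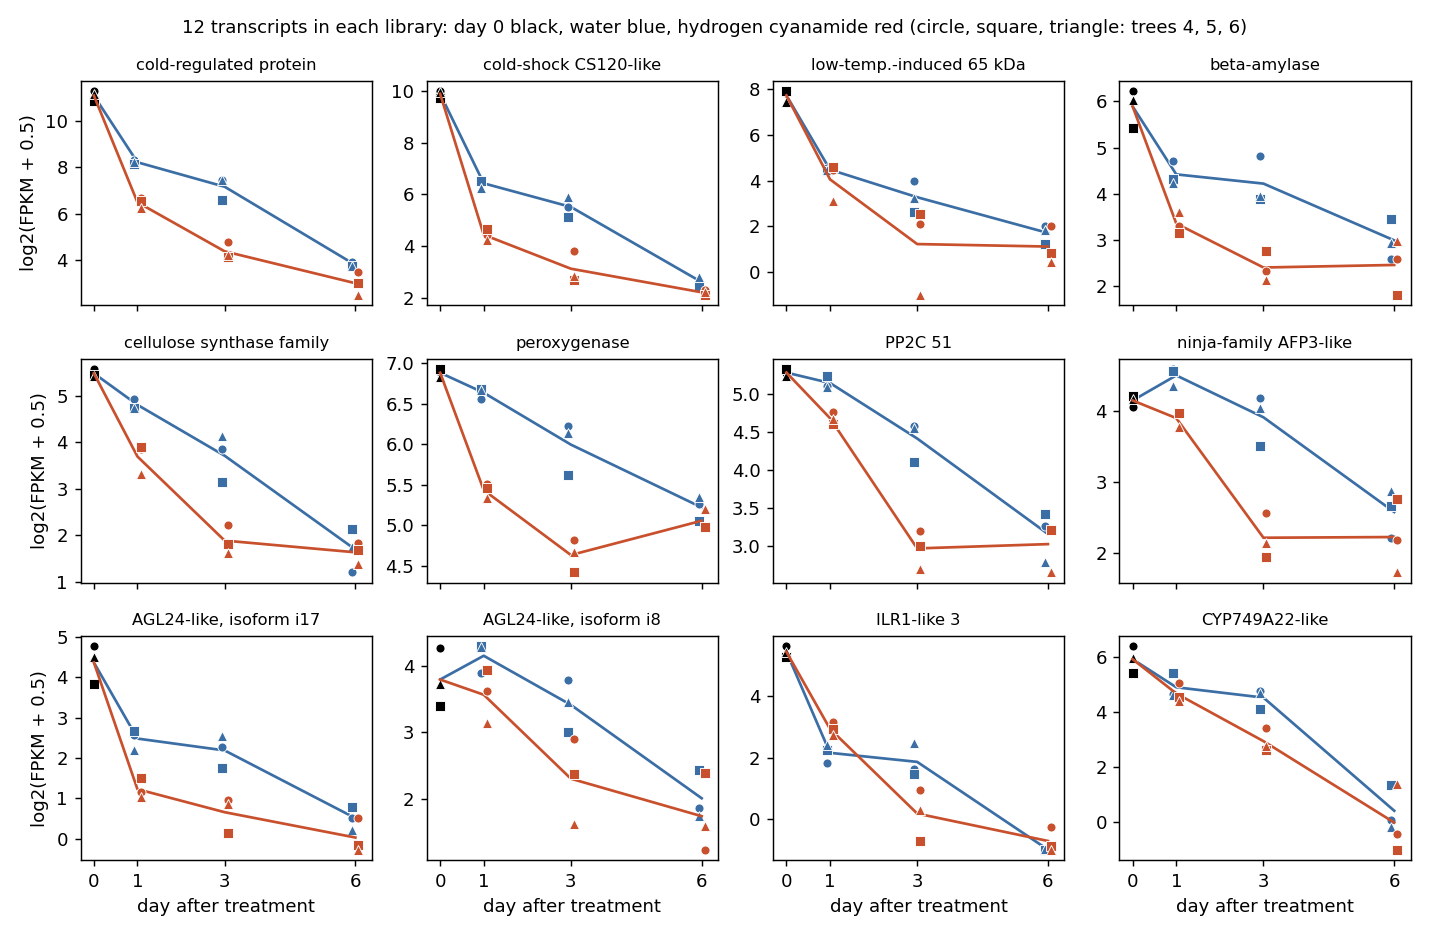
Level of 12 transcripts in each library (y axis, log2(FPKM + 0.5)) against the day after treatment (x axis), for day 0 (black), water-treated (blue) and hydrogen cyanamide-treated buds (red), with circles, squares and triangles for trees 4, 5 and 6 and lines through the group means. At 3 dat every red point lies under every blue point in each panel, and at 6 dat the colours overlap except in the panels of the cold-regulated and CS120-like transcripts. The y scale differs between panels.

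Several members are described as regulators linked to abscisic acid in other plants, and only the first of them belongs to the list for this hormone. Protein phosphatase 2C 51 (TR33788|c0_g1_i3, described through another isoform) belongs to a phosphatase family of which several members hold back abscisic acid signalling. It had 38.2, 39.7 and 37.2 FPKM at day 0 and 33.9, 37.0 and 33.7 FPKM in control buds at 1 dat. At 3 dat it had 23.4, 16.6 and 23.0 FPKM in control and 8.66, 7.47 and 5.99 FPKM in treated buds, and control buds at 6 dat had 9.07, 10.2 and 6.4 FPKM. Treated buds at 3 dat thus lay within the range of control buds at 6 dat or just under it. At 1 dat neither control (log2 FC -0.14, SE 0.10, limma adjusted p = 0.424) nor treated buds (log2 FC -0.60, SE 0.10, adjusted p = 0.00794) differed from day 0 by the 1 log2 unit required for a call.

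The ninja-family AFP3-like transcript (TR31916|c0_g1_i2, described through another isoform), related to Arabidopsis proteins that bind the abscisic acid response factor ABI5, had 16.2, 18.1 and 17.6 FPKM at day 0 and 23.7, 23.2 and 20.0 FPKM in control buds at 1 dat. At 3 dat it had 17.8, 10.9 and 16 FPKM in control and 5.42, 3.36 and 3.93 FPKM in treated buds, beside 4.14, 5.82 and 6.82 FPKM in control buds at 6 dat. It had hardly left its day 0 level in control buds at 3 dat, when treated buds had already covered 123% of the decline. Its log2 FC at 1 dat against day 0 was 0.35 in control (adjusted p = 0.132) and -0.25 in treated buds (adjusted p = 0.265), neither past the threshold.

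ATHB-12-like (TR21334|c0_g1_i1, also described through another isoform), a homeobox-leucine zipper factor that abscisic acid and water deficit induce in Arabidopsis, had 68.8, 54.0 and 58.8 FPKM at day 0. At 1 dat it had 32.5, 27.6 and 28.9 FPKM in control and 32.4, 27.1 and 31.4 FPKM in treated buds, and both sprays overlapped. At 3 dat the values were 20.9, 10.9 and 19.1 FPKM against 5.82, 6.88 and 3.39 FPKM. The fall from day 0 to 1 dat passed in control buds (log2 FC -1.01, SE 0.12, limma adjusted p = 0.00444) and missed the threshold on size in treated buds (log2 FC -0.98, SE 0.12, adjusted p = 0.00279). Both lay at the limit. Control buds no longer passed when tree 5 or 6 at 1 dat or tree 4 at day 0 was left out, with a log2 FC of -0.92 in the last case. Treated buds passed when tree 4 or 6 at 1 dat or tree 5 or 6 at day 0 was left out, with a log2 FC of up to -1.06, and likewise after rescaling. Of the 21 transcripts described for abscisic acid or phosphatases 2C, 0 are members by their own description, and 14 and 16 were tested in control and treated buds at 1 dat against day 0. Of these, 1 fell and 1 rose in control and 1 fell and 3 rose in treated buds. The shares of all transcripts tested were 1.89% and 3.63% in control and 2.42% and 5.13% in treated buds. Over the list the treated mean was under the control mean at 3 dat in 7 of 21, against 52.6% of all transcripts. The median control minus treated difference of the list was -0.18.

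Members of starch and sugar metabolism came from 5 genes. Beta-amylase, which frees maltose from starch in the plastid (TR24912|c1_g2_i1, described through another isoform), had 74.0, 42.3 and 64.7 FPKM at day 0. At 3 dat it had 27.7, 14.2 and 15.1 FPKM in control and 4.51, 6.27 and 3.86 FPKM in treated buds, and at 6 dat control buds had 5.46, 10.5 and 7.16 FPKM. The control library of tree 4 stood highest, and treated buds at 3 dat ranged from under to within control buds at 6 dat. From day 0 to 1 dat it fell by 1.47 in control (SE 0.23, limma adjusted p = 0.0103) and by 2.53 in treated buds (SE 0.23, adjusted p = 0.000577). The first call did not hold when the control library of tree 5 was left out (log2 FC -1.42, adjusted p = 0.0516).

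The other 4 were minor isoforms, each under 6% of its gene at day 0. Alpha-amylase (TR34896|c1_g1_i8), another starch-degrading enzyme, had means of 11.3 FPKM at day 0 and 5.83 and 2.46 FPKM in control and treated buds at 3 dat. The ERD6-like 16 sugar transporter (TR12684|c0_g1_i9) had 8.27, 4.53 and 1.47 FPKM, the glucose-6-phosphate/phosphate translocator (TR13430|c2_g2_i15), which carries sugar phosphate into plastids, 6.35, 2.60 and 0.302 FPKM, and sorbitol-6-phosphate dehydrogenase (TR10522|c0_g1_i2), the enzyme of sorbitol synthesis, 5.84, 1.44 and 0.0848 FPKM. Among the 48 transcripts of the study's tables on starch and sugars the treated mean was under the control mean at 3 dat in 27, with a median difference of 0.18, a share near the 52.6% of all transcripts. At 1 dat against day 0, 4 of 37 tested fell and 2 rose in control, and 8 of 41 fell and 7 rose in treated buds, beside 1.89% and 3.63% of all transcripts tested in control and 2.42% and 5.13% in treated buds.

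Flowering regulators were represented by 4 isoforms of 2 genes, described through other isoforms. AGL24-like TR26614|c7_g3 belongs to the MADS-box family, in which the Arabidopsis AGL24 promotes flowering and related SVP proteins repress it. Its isoform i17 had 26.6, 13.8 and 22.1 FPKM at day 0, and 4.30, 2.87 and 5.35 FPKM in control and 1.45, 0.605 and 1.33 FPKM in treated buds at 3 dat. Isoform i8 had 18.7, 9.96 and 12.7 FPKM at day 0, and 13.2, 7.52 and 10.4 FPKM in control and 6.95, 4.70 and 2.59 FPKM in treated buds at 3 dat. The first dropped at once and the second held its level for a day. At 1 dat against day 0, TR26614|c7_g3_i17 fell by 1.88 in control (SE 0.26, limma adjusted p = 0.00742) and by 3.14 in treated buds (SE 0.27, adjusted p = 0.000516), while TR26614|c7_g3_i8 had log2 FC of 0.36 (adjusted p = 0.408) and -0.23 (adjusted p = 0.68).

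Both isoforms are small parts of the gene, at 4.04% and 2.67% of its 516 FPKM at day 0, and eXpress divides shared reads between isoforms, so their single values are uncertain. The sum of all 24 isoforms differed less, with 390 FPKM in control and 179 FPKM in treated buds at 3 dat and 213 FPKM in control buds at 6 dat. Undescribed transcripts of the same assembly cluster, TR26614|c5_g1_i1 (68.9 FPKM at day 0) and TR26614|c6_g2_i1 (16.1 FPKM), were members as well. The floral homeotic APETALA2-like gene (TR11667|c0_g1), of a family that patterns flower organs, gave isoforms i2 and i15. Isoforms i20 and i21, which carry this description themselves, were not members and were not lower in treated buds. Their means at 3 dat were 1.83 and 1.44 FPKM in control and 2.11 and 1.84 FPKM in treated buds. Isoform i15 had 13.4, 7.36 and 11 FPKM at day 0 and 11.5, 10.3 and 11.5 FPKM in control against 3.22, 2.45 and 5.06 FPKM in treated buds at 3 dat, so control buds had not declined by then. Of 16 transcripts described for flowering, 9 had a treated mean under the control mean at 3 dat, near the 52.6% of all transcripts.

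Among members outside these groups, the cellulose synthase family protein (TR27577|c0_g1_i1), an enzyme type that makes wall glucans and the only transcript of its gene, had 47.4, 42.9 and 42.8 FPKM at day 0. It had 13.9, 8.39 and 17.1 FPKM in control and 4.17, 3.03 and 2.58 FPKM in treated buds at 3 dat, and 1.80, 3.87 and 2.87 FPKM in control buds at 6 dat. Treated buds at 3 dat spanned nearly the same values as control buds at 6 dat. The fall at 1 dat against day 0 was 0.68 in control buds, under the threshold on size (SE 0.11, limma adjusted p = 0.0113), and 1.79 in treated buds (SE 0.17, adjusted p = 0.000844). It was the single member among 57 transcripts described as cell wall enzymes or expansins. In that list 21 of 46 tested rose and 1 fell in treated buds at 1 dat against day 0, beside 5.13% and 2.42% of all transcripts tested. In control buds 1 of 41 tested rose and 5 fell, beside 3.63% and 1.89%. The list holds transcripts that the study had called responsive to the treatment, so these counts are in part set by that choice. At 3 dat 12 of 57 had a treated mean under the control mean, against 52.6% of all transcripts.

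Peroxygenase (TR24290|c0_g1_i2), which oxidises lipids with hydroperoxides, held 93.2% of its gene. It had 118, 121 and 113 FPKM at day 0 and 93.9, 102 and 101 FPKM in control against 44.9, 43.7 and 39.8 FPKM in treated buds at 1 dat. At 3 dat it had 74.2, 48.8 and 70.1 FPKM against 27.7, 20.9 and 24.9 FPKM, and at 6 dat 37.8, 32.7 and 40.4 FPKM against 31.1, 31.1 and 36.4 FPKM. Treated buds at 3 dat lay under all control buds and all treated buds at 6 dat (log2 FC of treated buds at 3 dat against control buds at 6 dat -0.59, SE 0.15, limma adjusted p = 0.0907, not past the threshold). From day 0 to 1 dat it changed by -0.25 in control (adjusted p = 0.0858) and fell by 1.45 in treated buds (SE 0.08, adjusted p = 6.81e-05).

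The universal stress protein A-like isoform TR23093|c0_g1_i2 had 12.3, 12.1 and 12.4 FPKM at day 0, and 3.07, 3.75 and 6.71 FPKM in control against 0.395, 0.0394 and 1.04e-08 FPKM in treated buds at 3 dat. Proteins of this family accumulate under various stresses. It fell by 2.89 in treated buds at 1 dat against day 0 (SE 0.24, limma adjusted p = 0.000409) and by 1.05 in control buds (SE 0.17, adjusted p = 0.0134), the latter lost with trees as a block (adjusted p = 0.0553), and when tree 5 or 6 in control buds or tree 6 at day 0 was left out (log2 FC -0.93, -1.05 and -1.04). It held 2.91% of its gene, whose sum stood at 133 FPKM in control and 5.94 FPKM in treated buds at 3 dat.

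IAA-amino acid hydrolase ILR1-like 3 (TR13087|c5_g1_i7, described through another isoform), of a family that frees auxin from its conjugates, took another course at 1 dat. It had 48.9, 38.6 and 42.9 FPKM at day 0, and at 1 dat 3.05, 4.31 and 4.79 FPKM in control and 8.48, 7.13 and 6.17 FPKM in treated buds. It was the only member whose treated libraries at 1 dat all lay above the control libraries (11.9% of all transcripts do), and at 3 dat it was lower in treated buds (1.45, 0.111 and 0.745 FPKM against 2.62, 2.29 and 5.11 FPKM). Its falls from day 0 were 3.29 in control (SE 0.19, limma adjusted p = 0.000361) and 2.51 in treated buds (SE 0.16, adjusted p = 0.000114).

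In the study's lists of responsive transcripts 54 of the 144 members had a description of function, 16 of their own and 38 through another isoform. The other 90 had none there. The full annotation of the study was not used, so they need not be of unknown function. The most abundant undescribed gene was TR12910|c1_g1, of which 4 of 11 isoforms were members. Isoform TR12910|c1_g1_i9 had 1524, 2044 and 1690 FPKM at day 0, 1493, 1221 and 1534 FPKM in control and 838, 829 and 820 FPKM in treated buds at 1 dat. At 3 dat it had 554, 617 and 708 FPKM in control and 253, 161 and 244 FPKM in treated buds, and at 6 dat 88.9, 160.4 and 133 FPKM in control buds. Treated buds at 3 dat therefore had not reached the control level of 6 dat in each tree, with a share of 79.2% of the decline. Isoform TR12910|c1_g1_i2 (1321 FPKM at day 0, 411 FPKM in control and 156 FPKM in treated buds at 3 dat) and TR38871|c0_g1_i2 (493, 128 and 48.9 FPKM) moved in the same way.

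Over all members, 52 of 144 fell at 1 dat against day 0 in control buds and 0 rose, by limma with a threshold of 0.05 on the adjusted p and of 1 on the absolute log2 FC. Of all 61315 transcripts tested 1.89% fell and 3.63% rose. In treated buds 90 members fell and 0 rose, beside 2.42% and 5.13% of all 60126 transcripts tested. At an unadjusted p under 0.05, 3 members were higher in control buds and 0 in treated buds. The median log2 FC of the members was -0.96 and -1.68, beside 0.13 and 0.06 over all transcripts. After rescaling the libraries by median ratios the median over all transcripts in control buds was -0.04, and that of the members -1.13. The members were chosen high at day 0 with the same libraries, so a surplus of falls is in part set by the choice.

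The difference between sprays at 1 dat was bounded by the rule on 1 side only. Treated buds had the lower mean in 134 of 144 members (57.3% of all transcripts), by a median of 0.76 log2 units (-2.10 to 1.99). In 90 members all treated libraries were under all control libraries (15.2% of all transcripts). The median was 0.73, 0.72 and 0.86 in trees 4, 5 and 6. The difference at 3 dat was of similar size in early and late members. Members were grouped by their fall from day 0 to 1 dat in control buds. The 22 members that fell by at least 2 log2 units had a median difference between sprays of 1.76 at 3 dat. The 79 that fell by 0.5 to 2 had 1.54 and the other 43 had 1.45. These values carry no test. Every member had to reach a difference of at least 1 at 3 dat, so the similar size is in part set by the choice.

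Treated buds at 3 dat were next set against control buds at 6 dat, a pair the rule did not compare although it used both groups as the low end. The median over members of this difference was -0.01 log2 units (-1.80 to 2.52), 72 members were higher and 72 lower, and 132 lay within 1 log2 unit. The libraries of both groups overlapped in 123 members. In 15 the treated libraries were all higher (12.3% of all transcripts) and in 6 all lower (12.2%). Of 116 members with a mean of at least 0.5 FPKM in these libraries, 0 were called lower and 1 higher with limma, beside 0.895% and 0.586% of the 63096 transcripts tested. At an unadjusted p under 0.05, 2 were lower and 12 higher. A p that misses the threshold does not show that both groups were alike, and for the cold-regulated protein TR34290|c0_g1_i1, for example, the log2 FC of 0.59 had a 95% interval of 0.13 to 1.04 (adjusted p = 0.168).

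**Figure D4:**
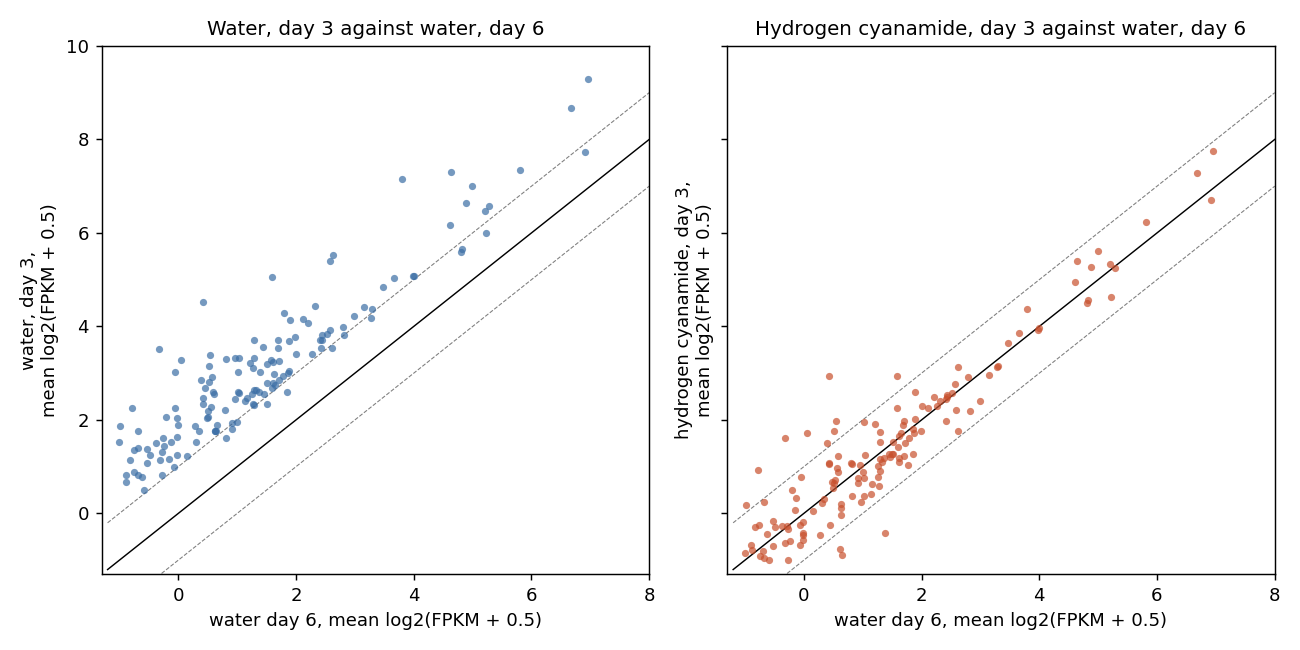
Mean log2(FPKM + 0.5) of the 144 transcripts in water-treated (left, blue) and hydrogen cyanamide-treated buds (right, red) at 3 dat (y axes) against water-treated buds at 6 dat (x axes). The solid line marks equal levels and dashed lines 1 log2 unit to either side. The blue points lie above the solid line as the choice of transcripts requires, and 132 red points lie within the dashed lines.

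The transcript called higher was CYP749A22-like (TR12876|c5_g1_i3, described through another isoform), a cytochrome P450. It had 10.4, 5.75 and 6.28 FPKM in treated buds at 3 dat and 0.576, 2.06 and 0.383 FPKM in control buds at 6 dat (log2 FC 2.52, SE 0.45, limma adjusted p = 0.0422). It did not hold with trees as a block (adjusted p = 0.0983) and without any 1 of the 6 libraries, where the adjusted p was 0.0655 to 0.143. In this member treated buds had covered 54.1% of the decline. The summed gene had 84.7 FPKM in control and 117 FPKM in treated buds at 3 dat. The ACC oxidase homolog 11-like transcript (TR13597|c1_g1_i2), named for similarity to the last enzyme of ethylene synthesis, came next with 1.61, 1.01 and 1.68 FPKM against 0.0249, 0.00142 and 0.251 FPKM (log2 FC 1.71, SE 0.38, adjusted p = 0.0691).

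In treated buds no member passed the test between 3 and 6 dat, a pair in which the rule had chosen the members low at 3 dat and close to control buds at 6 dat, so that the outcome is in part set by the choice. The level at 6 dat was lower by a median of 0.37 log2 units over all 144, and 103 had a lower mean at 6 than at 3 dat (55.2% of all transcripts). In 42 all libraries at 6 dat were under all libraries at 3 dat (12.0% of all transcripts). Of 112 members tested, 0 were called by limma in either direction, beside 0.133% lower and 0.465% higher of all 60841 transcripts, and 24 were lower and 3 higher at an unadjusted p under 0.05. The fit of all 21 libraries called 9 lower, beside 880 of all 60841 transcripts. The cold-regulated protein TR34290|c0_g1_i1 had a log2 FC of -1.37 (SE 0.29, adjusted p = 0.087) and was called in the fit of all libraries. At 6 dat the treated mean was under the control mean in 120 members, by a median of 0.36 over all members, and without overlap in 31 (12.6% of all transcripts). The treated mean was above the control mean in 24 members, beside 43.3% of all transcripts.

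Since eXpress divides reads among isoforms, the members were also set beside their whole genes. Only 33 members are the single transcript of their gene, 74 held at least 50% of the FPKM of their gene at day 0 and 29 held less than 10%. After summing all isoforms, 120 of 127 genes had a lower treated than control mean at 3 dat, 84 by at least 1 log2 unit, with a median of 1.23. As genes, 67 met the whole rule. The sums contain the members themselves, so these counts are in part set by the choice. The 328 other isoforms of these genes with at least 1 FPKM at day 0 had a lower treated mean at 3 dat in 254 cases, by a median of 0.56. In 7 genes the sum was higher in treated buds, so that the member ran against its gene.

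**Figure D5:**
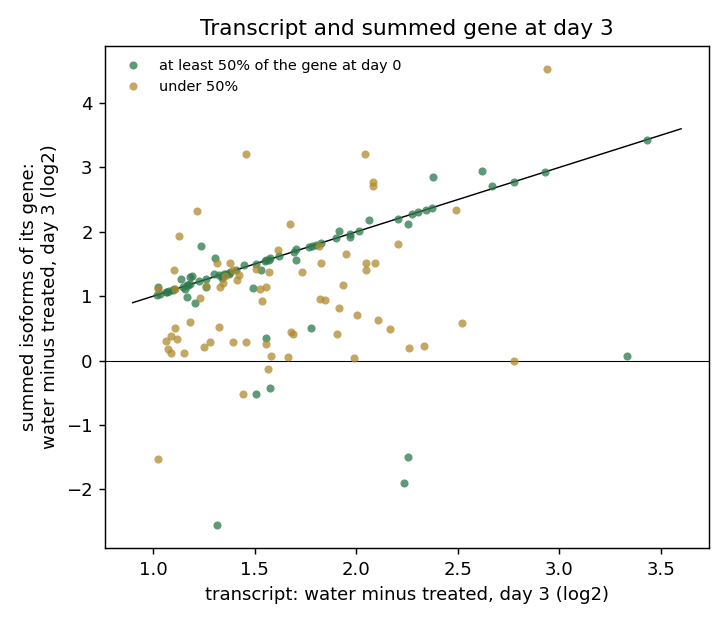
Control minus treated log2(FPKM + 0.5) at 3 dat of each of the 144 transcripts (x axis) and of the summed isoforms of its gene (y axis), for transcripts with at least 50% (green) and under 50% (ochre) of the gene at day 0. The sloping line marks equal differences, and points under the horizontal line belong to the 7 genes whose sum was higher in treated buds.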

How the data were processed

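RNA from flower buds of 3 trees was sequenced by the authors as stranded mRNA libraries, trimmed with Trimmomatic 0.33, assembled with Trinity, mapped with STAR and quantified with eXpress 1.5.1. The paper reports 2 biological replicates for day 1 in its differential expression, whereas all 3 deposited libraries of each group at 1 dat were used here. The deposited values are FPKM without counts. Depth is known here only as a relative value from rare transcripts. No counting interval is given, and precision rests on 3 libraries per group.

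The rule was applied to log2(FPKM + 0.5). Members and lists were chosen with earlier results of these data known. Descriptions, never values, came from the study's tables of differentially expressed and co-expressed transcripts, not from its full annotation. Entries such as uncharacterized or hypothetical protein counted as no description. Named were all members in the lists, up to 30 described members by level at day 0, the 3 highest undescribed ones and those next to the threshold. The text gives those with a described function or an exceptional course.

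For each pair of groups limma 3.58.1 (R 4.3.3, trend on the mean) was run for transcripts averaging 0.5 FPKM or more in the libraries compared, with Benjamini-Hochberg adjustment over all of them and 2-sided p. A call required an adjusted p not above 0.05 together with a log2 FC of 1 or more in size. P-values measure the spread between these trees. The fit was tested on simulated data. The same trees gave every group, so a fit blocked on trees was added. Residuals from group means correlated at -0.070 to 0.029 between libraries of a tree and at -0.047 to 0.070 between trees. Python 3.11.15 with pandas 2.3.3, numpy 2.4.6 and matplotlib 3.10.9 did the rest. As alternatives the pseudocount was set to 0.1 or 1 FPKM, the filter was dropped or raised to 1 FPKM, libraries were rescaled by median ratios, isoforms were added up for each gene, all 21 libraries shared 1 fit, and each library was left out.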

Additional observations from a re-analysis of the deposited data

Results flagged for a closer look

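IAA-amino acid hydrolase ILR1-like 3 (TR13087|c5_g1_i7) was higher in treated than in control buds at 1 dat in every tree, by a mean of 0.78 log2 units (1.34, 0.67 and 0.33 in trees 4, 5 and 6), and lower in every tree at 3 dat, which the rule demands. The difference between the days was not tested. Among the members 2 other transcripts, both undescribed, showed these opposite signs (TR26005|c0_g3_i2 with a mean of 0.48 and TR25717|c0_g2_i1 with 0.74 at 1 dat).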

How the results depend on the processing

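The rule kept 119 transcripts with a pseudocount of 0.1 FPKM, 129 with 1 FPKM and 152 after rescaling, of which 103, 114 and 129 were among the 144. Leaving out 1 library gave 128 to 177. The median difference at 3 dat was 1.85 and 1.30 with pseudocounts of 0.1 and 1 FPKM and 1.23 over summed genes (1.44 to 1.65 without 1 library), and that between day 0 and control buds at 6 dat 3.11, 2.35 and 2.24, and 2.93 after rescaling (2.63 to 2.78 without 1 library). At 1 dat the median was 0.64 after rescaling (0.70 to 0.79 without 1 library). Treated buds at 3 dat against control buds at 6 dat gave -0.05 to 0.10 without 1 library. The 52 and 90 members that fell at 1 dat against day 0 became 40 to 49 and 82 to 89 without 1 library, and 36 and 73 of them were called each time. With the tree as a replicate block 46 and 86 fell. Of the named members tested, the block changed the call of TR23093|c0_g1_i2 and TR12876|c5_g1_i3 and no other. Members called higher in treated buds at 3 dat than in control buds at 6 dat numbered 0 with a pseudocount of 0.1 FPKM, without a filter, with the replicate block and without any 1 library (0 to 0), 2 over summed genes and 3 in the fit of all 21 libraries. Members called lower in treated buds at 6 than at 3 dat numbered 6 over summed genes, 9 in the fit of all libraries and 0 to 1 without 1 library. Of all summed genes 215 of 29037 were called lower, and of all transcripts 880 of 60841 in the fit of all libraries. Of 558 alternatives for 43 tests of named members, 523 kept the call, 25 lost and 10 gained it and 0 reversed a called direction. Causes were not tested. Low values near 0 FPKM cannot be ranked without counts.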

Other observations

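Treated buds at 1 dat were already lower than control buds at 3 dat in 113 of 144 members, by a median of 0.55 log2 units beside 0.15 over all transcripts. They were still above treated buds at 3 dat in 134 members, by a median of 1.06 beside -0.08 over all transcripts. The rule chose control buds at 3 dat high and treated buds at 3 dat low, so both comparisons are in part set by the choice. Some isoforms ran against their gene at 3 dat. The UDP-glycosyltransferase 85A2-like isoform TR37845|c4_g1_i4, from a family of sugar-transferring enzymes, was lower in treated buds by 2.24 log2 units, and its gene summed to 14.0 FPKM in control and 54.1 FPKM in treated buds. The ACC oxidase homolog 11-like gene of TR13597|c1_g1_i2 summed to 8.75 and 57.7 FPKM, and that of the pleiotropic drug resistance 1-like transporter isoforms TR40141|c3_g2_i4 and TR40141|c3_g2_i6 to 19.1 and 27.4 FPKM. The evolutionarily conserved C-terminal region 5 isoform TR25736|c0_g2_i4 was erratic between trees, with 1.69, 29.6 and 18.5 FPKM at day 0, and its gene summed to 53.2 and 53.1 FPKM in control and treated buds at 3 dat.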
